A study of Mus musculus with 10 samples.

Results

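The response shared by the basal and the luminal lineage of the mouse mammary gland after luminal cell ablation was measured as the average of 2 differences, Tomato basal cells (TBC) minus basal cells (BC) and Tomato luminal cells (TLC) minus luminal cells (LC). It rests on 8 of the 10 libraries of the study, 2 per population, and leaves out the 2 libraries of Tomato hybrid cells. All cells were sorted from mammary glands by flow cytometry, and their RNA was sequenced in bulk. TBC and TLC carry the treatment label luminal cell ablation, which means that luminal cells of the gland were removed. Tomato is a red fluorescent protein used to mark cells and their descendants. No treatment is given for BC or LC, whose replicates 2 are labelled wild type. The labels give no mouse line, age, driver of the reporter or means of ablation for any group. Ablation and Tomato marking therefore came together in every comparison and cannot be told apart. No label ties the 2 libraries of a group to separate animals, and each p-value measures only the spread between these samples.

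The mammary duct is a double layer, with contractile basal cells that carry keratins 5 and 14 on the outside and luminal cells that carry keratins 8 and 18 around the lumen. Luminal cells include hormone-sensing cells, which carry the oestrogen and progesterone receptors, and progenitors of the milk-producing alveoli. In the adult gland each layer is largely kept by its own progenitors, and basal cells can give rise to luminal cells after injury or loss of luminal cells.

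Counts assigned to genes ran from 5381351 to 13685674 per library, and 3 counts equalled 0.214 to 0.588 CPM, counts per 1000000 gene counts after scaling. The test covered 19269 of the 49671 genes in the count tables. The summed level of the 22 basal and myoepithelial markers was 30818 and 23945 CPM in TBC, against 18775 and 27173 CPM in BC, and 4478 and 3301 CPM in TLC, against 5694 and 4160.3 CPM in LC, for replicates 1 and 2 of each. That of the 22 pan-luminal markers was 2241 and 1751 CPM in TBC, against 2458 and 2169 CPM in BC, and 8325 and 7197 CPM in TLC, against 13122 and 10579 CPM in LC, so both sets of markers followed the lineage labels. In a principal component analysis the first component, with 58.1% of the variance, split the lineages. The second, with 17.8%, placed the 4 Tomato libraries at 8.23 to 86.3 and the 4 control libraries at -48.3 to -30.5. The third, with 8.83%, placed replicates 1 at -54.6 to -3.81 and replicates 2 at 3.11 to 43.7. Library numbers in the sample titles fall into 2 sets, 44 to 48 for replicates 1 and 80 to 84 for replicates 2, and each set holds all 4 populations.

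Genes called higher in the shared response included most mitosis genes and part of the matrix genes listed here, and genes called lower included part of the defence, hormone-sensing and antigen presentation genes. At an adjusted p under 0.05, 758 genes rose and 486 fell in Tomato libraries, which is 3.93% and 2.52% of the genes tested. The median shared log2 fold change was 1.73 among the genes that rose and -1.14 among those that fell, against -0.023 over all genes tested. Of the called genes, 691 that rose and 423 that fell were protein coding. TBC minus BC and TLC minus LC had the same sign for 1150 of the 1244 called genes, or 92.4%, and for 61.1% of all genes tested. The average of both differences favours such genes by its construction. All 1244 called genes had the same sign within both sets of library numbers, as 68.6% of all genes tested did, and the calls were made on the average of these sets. All 8 libraries stood apart, with both Tomato libraries beyond both controls in each lineage, for 542 of the genes that rose and 350 of those that fell. Over all genes tested that pattern held upward for 8.28% and downward for 8.09%.

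The luminal difference was the wider of the pair for most called genes. Among genes that rose, the median log2 fold change was 0.84 for TBC minus BC and 2.51 for TLC minus LC, and among genes that fell it was -0.60 for TBC minus BC and -1.63 for TLC minus LC. In 185 of the 1244 called genes the basal difference was the larger in size. Tested alone in the same edgeR fit, TLC minus LC gave 832 genes higher and 680 lower, 4.32% and 3.53% of the genes tested. TBC minus BC gave 0 calls, or 0%, with a smallest adjusted p of 0.304. At an unadjusted p under 0.05 it had 803 genes higher and 825 lower, and DESeq2 called 198 genes and limma-voom 0 there. Of the 1244 shared calls, 279 were not called in TLC minus LC. In 568 of the 1244, both lineages had the same sign and each an unadjusted p under 0.05 in the edgeR fit. A test of the difference between the lineages called 123 genes, or 0.638%, and 104 of the shared calls were among them, all with the larger change in the luminal lineage. Removing 1 library left between 345 shared calls without TLC replicate 1 and 1110 without TLC replicate 2. The other counts that moved by more than 1.5 times were 549 without BC replicate 1, 795 without BC replicate 2, 752 without LC replicate 2 and 453 without TBC replicate 2. The TLC minus LC count became 320 without TLC replicate 1, 687 without LC replicate 2 and 836 without TLC replicate 2, and the TBC minus BC count 136 without TBC replicate 1.

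**Figure D1:**
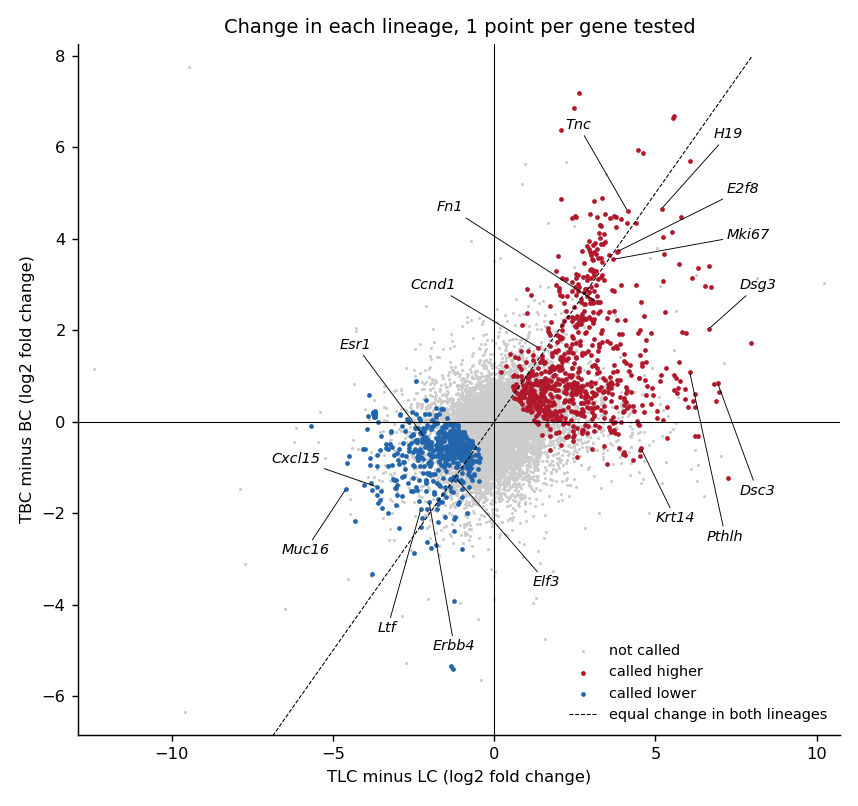
Log2 fold change of each of the 19269 genes tested, TLC minus LC on the horizontal axis and TBC minus BC on the vertical axis, with genes called in the shared response in red where higher and in blue where lower. Genes such as Tnc, E2f8 and Mki67 lie near the dashed line of equal change, and Dsc3, Pthlh and Krt14 lie far to the right with a TBC minus BC value of 0.84, 1.08 and -0.58.

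Genes of mitosis and the spindle rose almost as a block in the average of the lineages. Of 28 members, 27 rose and Aurka, a mitotic kinase, did not pass at 0.42 ± 0.34 (log2 fold change ± SE). The list had a median log2 fold change of 3.18 in both lineages together, 3.25 for TBC minus BC and 3.07 for TLC minus LC, and no member differed between the lineages in the test of the difference. In TLC minus LC alone 22 members were called, and in TBC minus BC 0 by edgeR, as for all genes there. The mean log2 CPM of the list was 2.82 and 5.01 in TBC, against 1.04 and 1.55 in BC, and 5.81 and 5.40 in TLC, against 2.42 and 3.11 in LC. TBC replicate 1 lay nearer to BC than TBC replicate 2 did. In 24 members both Tomato libraries lay above both controls in each lineage. The median shared change was 2.75 within the library numbers 44 to 48 and 3.08 within 80 to 84. Fewer dividing cells and less RNA of these genes per cell in the control sorts cannot be told apart in bulk samples, here or in any result that follows.

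Promoters of mitotic genes are known to share a CCAAT box, which binds the factor NF-Y, and a cell cycle homology region (CHR), which binds the MuvB complexes that hold these genes silent in resting cells. The stretches just upstream of the gene start of Ube2c, Mki67 and Ccnb1 are shown because these called members hold such letters there. The same stretch of Cenpe, another called member, held none of the letters searched. The printed stretches are taken from RefSeq promoters of build GRCm38.p6, read 5′ to 3′ along the gene's strand, and end before the start of both the RefSeq and the GENCODE gene. Capitals mark CCAAT and the CHR letters TTTGAA or TTCGAA on either strand.
Ube2c, chr2:164769778-164769897, plus strand: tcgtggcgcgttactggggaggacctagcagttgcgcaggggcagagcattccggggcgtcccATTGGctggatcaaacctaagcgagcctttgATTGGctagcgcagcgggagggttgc
Mki67, chr7:135716380-135716499, minus strand: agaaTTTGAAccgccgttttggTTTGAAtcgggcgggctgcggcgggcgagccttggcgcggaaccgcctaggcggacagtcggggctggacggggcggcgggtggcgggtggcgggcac
Ccnb1, chr13:100786571-100786690, minus strand: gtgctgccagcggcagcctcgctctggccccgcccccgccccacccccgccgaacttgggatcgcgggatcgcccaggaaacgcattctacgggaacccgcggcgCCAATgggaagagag
The Ube2c stretch holds 2 CCAAT boxes, the Mki67 stretch 2 CHR matches and the Ccnb1 stretch 1 CCAAT box. In the 250 bases before the RefSeq start, CCAAT occurred in 20 of the 23 mitosis members with a promoter in the table, or 87.0%, against 34.5% of all 27025 promoters of that length and 35.7% of the 11904 promoters of genes tested. A CHR match occurred in 9 of 23, or 39.1%, against 17.4% of all promoters and 12.5% of those of genes tested. The E2F letters TTTCCCGC, TTTGGCGC, TTTCGCGC and TTTGCCGC, on either strand, occurred in 6 of 24 S phase promoters, or 25.0%, against 1.91% of all promoters and 3.23% of those of genes tested. No E2F letters occurred in the 120 bases just upstream of Tyms, Rrm2, Mcm2 or Mcm3, the called S phase members picked by the naming rule. A match describes the letters and was not tested as a site.

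Mki67 (ENSMUSG00000031004, chr7:135689784-135716361), whose protein coats mitotic chromosomes and marks dividing cells, had 69.8 and 249.5 CPM in TBC libraries, against 11.4 and 15.7 CPM in BC libraries. Mki67 levels were 580.4 and 465 CPM in TLC libraries, against 28.2 and 53.2 CPM in LC libraries. Both Tomato libraries were above both controls in each lineage, with TBC replicate 1 the lowest of the 4 Tomato libraries. In the quasi-likelihood test of edgeR, adjusted by Benjamini-Hochberg, it had a shared log2 fold change of 3.61 (SE 0.43, adjusted p = 0.00461). Ube2c (ENSMUSG00000001403, chr2:164769898-164778822), the ubiquitin-conjugating enzyme of the anaphase-promoting complex, had 4.26 and 16.8 CPM in TBC libraries, against 1.18 and 1.02 CPM in BC libraries. Ube2c levels were 36.6 and 24.4 CPM in TLC libraries, against 3.46 and 3.72 CPM in LC libraries. Its groups did not overlap in either lineage, with a log2 fold change of 3.19 (SE 0.42, adjusted p = 0.00455). Cenpe, a kinetochore motor, changed by 3.41 ± 0.42 (adjusted p = 0.00461), Ccnb1, cyclin B1, by 4.03 ± 0.55 (adjusted p = 0.00585) and Top2a, the topoisomerase that untangles chromosomes, by 3.48 ± 0.56 (adjusted p = 0.0142). E2f8 (ENSMUSG00000046179, chr7:48866429-48881596), an atypical E2F that represses cell cycle genes after S phase, stands outside the naming rule and was chosen after its values were seen. It had 7.57 and 18.8 CPM in TBC libraries, against 0.98 and 1.02 CPM in BC libraries. E2f8 levels were 30.3 and 21.4 CPM in TLC libraries, against 1.84 and 1.79 CPM in LC libraries. The controls of each lineage were nearly level and all Tomato libraries lay above them, with a log2 fold change of 3.77 (SE 0.35, adjusted p = 0.00134).

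Genes of DNA replication and S phase rose in 17 of 30 members and fell in none, with a median log2 fold change of 1.24 in both lineages together, 1.07 for TBC minus BC and 1.76 for TLC minus LC. Tyms, the thymidylate synthase, changed by 1.91 ± 0.33 (adjusted p = 0.0102) and Rrm2, a subunit of ribonucleotide reductase, by 2.85 ± 0.45 (adjusted p = 0.0116). Genes of DNA repair by recombination rose in 8 of 16 members, with a median log2 fold change of 1.19 in both lineages together, 1.05 for TBC minus BC and 1.42 for TLC minus LC. Its mean log2 CPM was 2.54 and 3.91 in TBC, against 2.25 and 2.19 in BC, and that of the S phase list 3.51 and 5.01 in TBC, against 3.38 and 3.02 in BC, so the basal difference of both lists came mostly from TBC replicate 2. Brca1, which guides repair of DNA breaks, had 5.36 and 21.8 CPM in TBC libraries, against 1.57 and 1.95 CPM in BC libraries. Brca1 levels were 42.9 and 35 CPM in TLC libraries, against 5.52 and 7.08 CPM in LC libraries, and its partner Bard1 changed by 2.68 ± 0.42 (adjusted p = 0.00754). For Brca1 the groups were apart in each lineage, with a log2 fold change of 2.78 (SE 0.40, adjusted p = 0.00615). The mitosis count of 27 became 8 without TLC replicate 1, 9 without BC replicate 1 or 2 and 16 without LC replicate 1 or 2. The S phase count of 17 became 0 without TLC replicate 1, 2 without BC replicate 2, 5 without BC replicate 1 or LC replicate 2, 8 without LC replicate 1 and 10 without TBC replicate 2, and 9 in an additive model with 1 ablation effect for both lineages. The repair count of 8 became 2 without TLC replicate 1, 3 without TBC replicate 2, BC replicate 1 or 2 or LC replicate 2 and 5 without TLC replicate 2, and 5 in the additive model. Among the genes named, calls were lost without BC replicate 1 (Ccnb1, Top2a and Rrm2, 0.0522 to 0.112), with no filter on low counts (Top2a, 0.107) and without LC replicate 1 (Top2a, 0.101). Calls were also lost without TLC replicate 1 (Top2a, Tyms and Rrm2, 0.0533 to 0.072), without BC replicate 2 (Top2a and Rrm2, 0.0658 to 0.089) and without LC replicate 2 (Top2a, 0.0787), with the adjusted p in brackets.

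**Figure D2:**
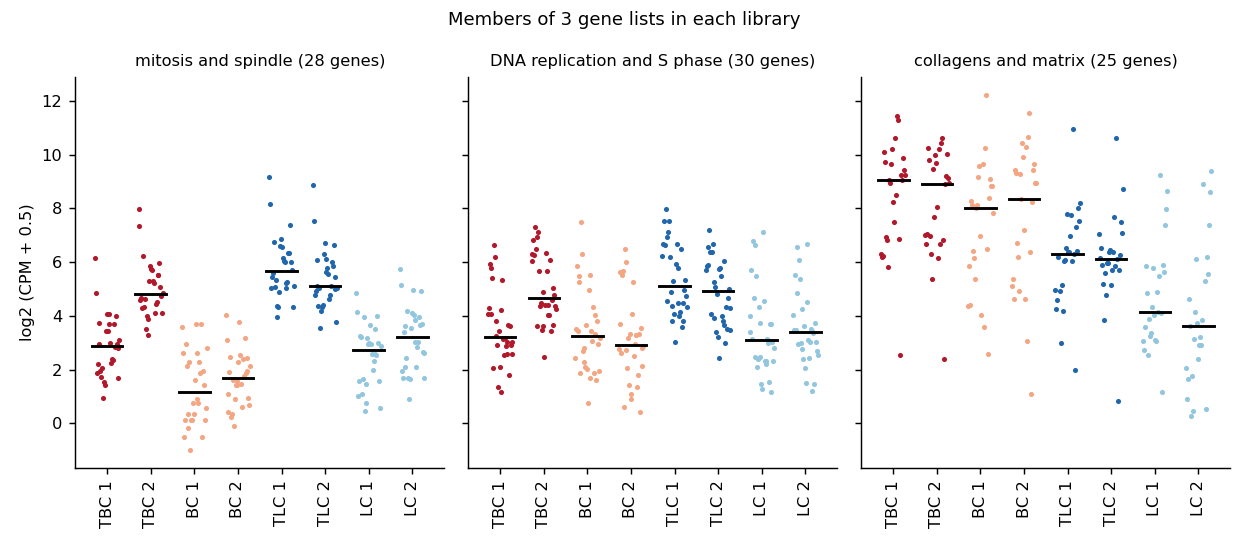
Each point is 1 gene of a list in 1 library, as log2 of CPM plus 0.5, and each black bar is the median over the list's genes. For mitosis both TBC bars lie above both BC bars and both TLC bars above both LC bars, while TBC replicate 1 lies among the BC libraries for S phase.

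Cyclins, their inhibitors and the Rb family moved less, with 4 of 18 members higher (Ccnd1, Ccnd2, Cdk4 and Cdk6) and 1, Rb1, lower. Ccnd1 (ENSMUSG00000070348, chr7:144929931-144939925), the cyclin D1 that links growth signals to the cell cycle, had 51.7 and 88.6 CPM in TBC libraries, against 22.3 and 23.4 CPM in BC libraries. Ccnd1 levels were 546 and 515 CPM in TLC libraries, against 209 and 202 CPM in LC libraries. The groups were well apart in each lineage, with a log2 fold change of 1.49 (SE 0.19, adjusted p = 0.0037). The gene LTO1 overlaps Ccnd1 on the opposite strand and was called at 1.06. Since the strand setting of the counts is not given, reads of Ccnd1 and LTO1 cannot be told apart. Ccnd2, a related D-type cyclin, had 130.4 and 281 CPM in TBC libraries, against 33.3 and 23.9 CPM in BC libraries. Ccnd2 levels were 44.8 and 14.4 CPM in TLC libraries, against 5.73 and 1.36 CPM in LC libraries, with a log2 fold change of 2.98 (SE 0.53, adjusted p = 0.0211). Rb1, the retinoblastoma protein that holds E2F factors in check, changed by -0.79 ± 0.18 (adjusted p = 0.0321), with -0.20 for TBC minus BC and -1.38 for TLC minus LC. Cdkn1a, the inhibitor p21, did not pass at -0.88 ± 0.41 (adjusted p = 0.258). Of 18 p53 targets 3 were called higher, against 3.93% of all genes tested, and Perp, also in the desmosome list, was among them. The p53 list's median was 0.21 in both lineages together, -0.025 for TBC minus BC and 0.155 for TLC minus LC. It was 0.34 within library numbers 44 to 48 and -0.13 within 80 to 84, so the list as a whole did not rise in both sets.

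Ligands, receptors and feedback genes of the EGF receptor family moved both ways. Of 22 members, 3 rose (Nrg1, Ereg and Etv5) and 2 fell (Areg and Erbb4), around a median of -0.34. Nrg1, the neuregulin that binds the receptors ERBB3 and ERBB4, had 174 and 117 CPM in TBC libraries, against 81.3 and 43.3 CPM in BC libraries. Nrg1 levels were 119 and 49.9 CPM in TLC libraries, against 4.43 and 4.57 CPM in LC libraries, and it had a log2 fold change of 2.72 (SE 0.33, adjusted p = 0.00405). The gene Gm26578 overlaps Nrg1 on the opposite strand and was called at 2.36. Since the strand setting of the counts is not given, reads of Nrg1 and Gm26578 cannot be told apart. Erbb4 (ENSMUSG00000062209, chr1:68032186-69108059), a receptor for neuregulins that acts in alveolar development, had 2.21 and 1.97 CPM in TBC libraries, against 9.41 and 4.91 CPM in BC libraries. Erbb4 levels were 9.8 and 11.5 CPM in TLC libraries, against 50.6 and 36 CPM in LC libraries. Ligand and receptor thus ran in opposite directions with no overlap of the groups in either lineage, Erbb4 at a log2 fold change of -1.88 (SE 0.26, adjusted p = 0.00468). Etv5, a transcription factor induced by MAPK signalling, changed by 1.71 ± 0.27 (adjusted p = 0.00869), with 1.31 for TBC minus BC and 2.11 for TLC minus LC. Among the cyclin, Rb and EGF family genes named, calls were lost without BC replicate 1 (Ccnd2 and Rb1, 0.102 to 0.107), with no filter on low counts (Ccnd2, 0.133) and without LC replicate 1 (Rb1, 0.088). Losses also came without TLC replicate 1 (Ccnd2 and Rb1, 0.0748 to 0.0918), without BC replicate 2 (Ccnd2, 0.105) and without LC replicate 2 (Ccnd2, 0.0607). Further losses came without TBC replicate 1 (Ccnd2 and Rb1, 0.063 to 0.0935), without TBC replicate 2 (Ccnd2 and Rb1, 0.107 to 0.113) and in a model with 1 ablation effect for both lineages (Rb1 and Nrg1, 0.0901 to 0.137). Calls ended too without TLC replicate 2 (Rb1, 0.0821). The 4 higher calls of the cyclin list became 1 without BC replicate 1, TLC replicate 1 or LC replicate 2 and 2 without TBC replicate 2, BC replicate 2 or LC replicate 1, and the 2 lower calls of the EGF receptor list became 1 without TBC replicate 2, BC replicate 1 or 2, TLC replicate 1 or 2 or LC replicate 1. The additive model gave 2 higher cyclin calls and 1 higher and 1 lower EGF receptor call, and DESeq2 gave 5 lower EGF receptor calls.

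Extracellular matrix genes rose in part, led by glycoproteins of remodelling tissue. Of 25 collagens and matrix genes, 11 rose and none fell, with a median log2 fold change of 1.0 in both lineages together, 0.58 for TBC minus BC and 1.8 for TLC minus LC. The 11 were Tnc, Fn1, Col1a1, Col3a1, Col1a2, Col18a1, Col17a1, Col7a1, Sparc, Col12a1 and Nid1. Tnc (ENSMUSG00000028364, chr4:63959785-64047015), the glycoprotein tenascin C of developing and healing tissue, had 362 and 103 CPM in TBC libraries, against 11.4 and 7.95 CPM in BC libraries. Tnc levels were 216 and 202 CPM in TLC libraries, against 17 and 7.08 CPM in LC libraries. All 4 Tomato libraries lay far above all 4 controls, and Tnc had a log2 fold change of 4.37 (SE 0.47, adjusted p = 0.00405). The noncoding gene 8030451A03Rik overlaps Tnc on the opposite strand, and since the strand setting of the counts is not given, reads of the pair cannot be told apart. Fn1 (ENSMUSG00000026193, chr1:71585520-71653200), fibronectin, had 178 and 70.7 CPM in TBC libraries, against 15.9 and 24.2 CPM in BC libraries. Fn1 levels were 81.9 and 51.7 CPM in TLC libraries, against 7.79 and 6.93 CPM in LC libraries. Its groups were apart in each lineage, with a log2 fold change of 2.9 (SE 0.32, adjusted p = 0.0031). Vcan, the proteoglycan versican, stands outside the naming rule and had 609.8 and 1281 CPM in TBC libraries, against 141 and 98.6 CPM in BC libraries. Vcan levels were 182 and 58.7 CPM in TLC libraries, against 9.41 and 2.22 CPM in LC libraries, with a log2 fold change of 3.7 (SE 0.56, adjusted p = 0.0115). Col18a1, a basement membrane collagen, changed by 2.13 ± 0.28 (adjusted p = 0.00455) and Col7a1, which anchors the basement membrane, by 1.67 ± 0.27 (adjusted p = 0.00754). The laminin chain Lama5 of basement membranes did not pass at 0.0092 ± 0.27.

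Col1a1, Col3a1 and Col1a2, the fibrillar collagens, are also made by fibroblasts and stand in the fibroblast list as well. That list had 5 of 12 members higher and 1 lower, and its summed level was 761 and 1283 CPM in TBC, against 597 and 627 CPM in BC, and 241 and 408 CPM in TLC, against 357 and 312 CPM in LC, and none of its 14 genes was at 0 counts in any library. Col1a1 had 78.4 and 129 CPM in TBC libraries, against 20.2 and 34.4 CPM in BC libraries. Col1a1 levels were 30.3 and 132 CPM in TLC libraries, against 7.79 and 3.65 CPM in LC libraries, and it had a log2 fold change of 2.89 (SE 0.51, adjusted p = 0.0196). Dcn, decorin, a defining fibroblast product, fell by 1.89 (SE 0.39, adjusted p = 0.0307), and Pdgfra, the receptor that marks fibroblasts, did not pass at -0.45 ± 0.27. Fbln2, a matrix protein also made by basal cells, changed by 1.27 ± 0.24 (adjusted p = 0.014). The fibroblast list's median was -0.35 within library numbers 44 to 48 and 1.99 within 80 to 84, while the matrix list's was 0.98 and 1.04. The part of fibroblasts in the matrix result was not tested. The matrix count of 11 became 5 without TBC replicate 1 or BC replicate 1 or 2, 6 without TBC replicate 2 and 7 without TLC replicate 2, and 2 with 1 ablation effect for both lineages. The 5 fibroblast calls became 0 without BC replicate 1, 1 without TBC replicate 1 or 2 or LC replicate 2, 2 without BC replicate 2 and 3 without TLC replicate 1 or 2 or LC replicate 1, and 1 in that model. Calls of the matrix and fibroblast genes named were lost without BC replicate 1 (Vcan, Col1a1, Dcn and Fbln2, 0.0608 to 0.117), with no filter on low counts (Vcan and Col1a1, 0.0872 to 0.118) and without LC replicate 1 (Col1a1 and Dcn, 0.0706 to 0.106). Losses came too without TLC replicate 1 (Dcn and Fbln2, 0.0664 to 0.157), without BC replicate 2 (Vcan, Col1a1 and Dcn, 0.064 to 0.0753) and without LC replicate 2 (Col1a1 and Dcn, 0.0962 to 0.111). Calls were also lost without TBC replicate 1 (Col1a1, 0.0722), without TBC replicate 2 (Vcan and Col1a1, 0.0809 to 0.111) and in a model with 1 ablation effect for both lineages (Col18a1, Col7a1, Col1a1 and Dcn, 0.063 to 0.328). Losses also came without TLC replicate 2 (Dcn, 0.0704).

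**Figure D3:**
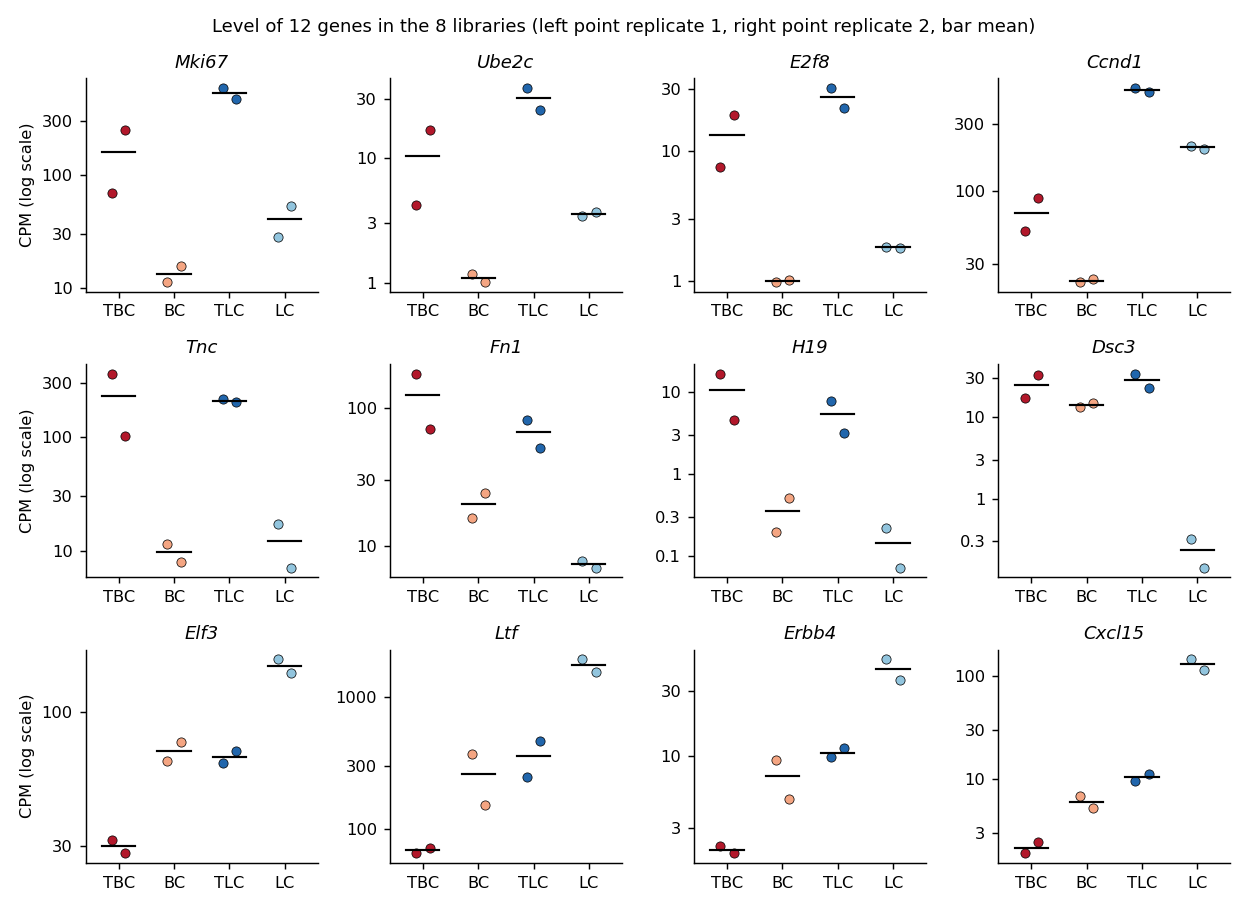
CPM of 12 genes on a log axis in TBC, BC, TLC and LC, with the left point of each pair for replicate 1, the right for replicate 2 and a bar at their mean. In each panel both Tomato libraries lie beyond both control libraries of their lineage, upward for the first 8 genes and downward for Elf3, Ltf, Erbb4 and Cxcl15.

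Genes of the embryonic mammary gland and of stem cells rose in 7 of 21 members and fell in none. The median log2 fold change was 0.42 in both lineages together, 0.23 for TBC minus BC and 0.68 for TLC minus LC. Of the 21 members, 3 differed between the lineages. The 7 were H19, Hmga2, Pthlh, Bcl11b, Lgr5, Tcf7 and Bcl11a. Among them Lgr5 lay below 0 for TBC minus BC and above 0 for TLC minus LC. H19 (ENSMUSG00000000031, chr7:142575529-142578143), an imprinted noncoding RNA of fetal tissue, had 16.6 and 4.52 CPM in TBC libraries, against 0.196 and 0.508 CPM in BC libraries. H19 levels were 7.7 and 3.09 CPM in TLC libraries, against 0.216 and 0.0715 CPM in LC libraries. With 78 counts in TLC against 3 in LC, the luminal ratio was 36.1 with a 95% interval of 11.9 to 179 that covers counting error only, and TBC minus BC was 4.66 ± 0.86 (shared adjusted p = 0.00405). Pthlh (ENSMUSG00000048776, chr6:147252101-147264183), the hormone-related peptide by which the embryonic mammary bud patterns its mesenchyme, had 32.5 and 38.6 CPM in TBC libraries, against 13.7 and 19.6 CPM in BC libraries. Pthlh levels were 19.9 and 22.5 CPM in TLC libraries, against 0.433 and 0.214 CPM in LC libraries. Its groups were apart in each lineage, but the change differed between them, with 1.08 ± 0.29 for TBC minus BC and 6.06 ± 0.42 for TLC minus LC (adjusted p of the difference 0.00667). Bcl11b, a zinc-finger factor of basal stem cells, likewise had 0.70 ± 0.46 for TBC minus BC and 5.58 ± 0.66 for TLC minus LC (adjusted p of the difference 0.0422). Tcf7, a nuclear partner of beta-catenin, had 45.1 and 79.2 CPM in TBC libraries, against 31.6 and 30.9 CPM in BC libraries. Tcf7 levels were 41.5 and 22.1 CPM in TLC libraries, against 8.98 and 9.01 CPM in LC libraries, and it had a log2 fold change of 1.4 (SE 0.25, adjusted p = 0.0109).

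Wnt pathway genes, several of them in the embryonic list too, rose in 6 of 22 members and fell in 3, with a median log2 fold change of 0.64 in both lineages together, 0.086 for TBC minus BC and 0.87 for TLC minus LC. Of the 22 members, 4 differed between the lineages. Nkd2, a feedback inhibitor of Wnt signalling, had 62 and 81 CPM in TBC libraries, against 24.3 and 27.2 CPM in BC libraries. Nkd2 levels were 48.5 and 47.8 CPM in TLC libraries, against 4.0 and 0.50 CPM in LC libraries. Its Tomato libraries lay above the controls in each lineage, with a log2 fold change of 2.99 (SE 0.43, adjusted p = 0.00809). Sostdc1 (ENSMUSG00000036169, chr12:36314139-36318452), a secreted inhibitor of BMP and Wnt signals, was chosen after its values were seen and had 52.7 and 47.8 CPM in TBC libraries, against 7.25 and 21.7 CPM in BC libraries. Sostdc1 levels were 21.5 and 26.8 CPM in TLC libraries, against 1.95 and 2.29 CPM in LC libraries, with a log2 fold change of 2.63 (SE 0.31, adjusted p = 0.00301). The ligand Wnt7b fell to 3.47 and 2.77 CPM in TBC libraries, against 7.25 and 4.82 CPM in BC libraries. Wnt7b levels were 17.1 and 24.4 CPM in TLC libraries, against 70.0 and 61.4 CPM in LC libraries, with a log2 fold change of -1.3 (SE 0.22, adjusted p = 0.00939). Wnt4, the progesterone-induced ligand, had 0.078 ± 0.31 for TBC minus BC and -2.32 ± 0.30 for TLC minus LC (shared adjusted p = 0.0142). Bmp7, a secreted growth factor of the TGF-beta family, changed by 1.98 ± 0.20 (adjusted p = 0.0021). Calls of the genes named for embryonic and Wnt genes were lost without BC replicate 1 (Nkd2, 0.0581), without TLC replicate 1 (Wnt4, 0.071) and without TBC replicate 2 (Wnt7b and Wnt4, 0.0527 to 0.0621). Further losses came in a model with 1 ablation effect for both lineages (Pthlh, Bcl11b, Nkd2, Wnt4 and Bmp7, 0.0783 to 0.239). The 7 embryonic calls became 4 without BC replicate 1 or TLC replicate 1 and 2 with 1 ablation effect for both lineages. The 6 higher Wnt calls became 2 without BC replicate 1 or TLC replicate 1 and 3 without LC replicate 2, and the 3 lower 0 without TBC replicate 2 and 1 without TLC replicate 1. The additive model had 2 higher and 1 lower Wnt calls.

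Basal identity genes were called in the average mainly through the luminal lineage. Of 22 basal and myoepithelial markers, 9 rose and none fell, with a median log2 fold change of 1.08 in both lineages together, 0.33 for TBC minus BC and 2.08 for TLC minus LC, and 8 of the 22 differed between the lineages. With 1 ablation effect fitted for both lineages, 1 of the 22 was called. The summed level of the 22 ran the other way in the luminal lineage, at 4478 and 3301 CPM in TLC, against 5694 and 4160 CPM in LC. A sum follows its most abundant members, and the mean log2 CPM was 6.73 and 6.26 in TLC, against 4.99 and 4.32 in LC. The lowest member was Igfbp5, with a shared log2 fold change of -0.95. Krt14 (ENSMUSG00000045545, chr11:100203162-100207548) had 1722 and 1324 CPM in TBC libraries, against 2345 and 2206 CPM in BC libraries. Krt14 levels were 674 and 379 CPM in TLC libraries, against 34.7 and 10.6 CPM in LC libraries. It was thus lower in TBC than in BC and higher in TLC than in LC, with -0.58 ± 0.49 for TBC minus BC and 4.55 ± 0.57 for TLC minus LC (adjusted p of the difference 0.0198). Trp63, the transcription factor p63 of basal epithelia, had 612 and 645 CPM in TBC libraries, against 493 and 537 CPM in BC libraries. Trp63 levels were 66.1 and 38.5 CPM in TLC libraries, against 9.52 and 6.43 CPM in LC libraries, a difference of 0.29 ± 0.29 for TBC minus BC and 2.72 ± 0.32 for TLC minus LC. Krt5 had -0.0024 for TBC minus BC and 3.92 for TLC minus LC, Cdh3, P-cadherin, -0.081 and 4.48, and Tpm2, a tropomyosin of contractile cells, 0.45 and 2.88. Snai2, a repressor of epithelial genes, had 0.59 ± 0.35 for TBC minus BC and 3.1 ± 0.46 for TLC minus LC, a difference that did not pass (adjusted p = 0.102). Acta2, smooth muscle actin, did not pass at 0.94 ± 0.33 (adjusted p = 0.122).

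Some desmosome genes of stratified epithelium were split in the same way. Of 16 desmosome and cornified-layer genes tested, 4 rose (Dsc3, Dsg3, Pkp1 and Perp), the median was 0.29, and 4 of the 16 differed between the lineages. Dsc3 (ENSMUSG00000059898), a desmocollin of basal keratinocytes, had 17.3 and 32.5 CPM in TBC libraries, against 13.1 and 14.7 CPM in BC libraries. Dsc3 levels were 33.9 and 22.5 CPM in TLC libraries, against 0.324 and 0.143 CPM in LC libraries. The LC libraries held 5 counts in all, and the change was 0.84 ± 0.36 for TBC minus BC and 6.93 ± 0.54 for TLC minus LC (adjusted p of the difference 0.00722). Dsg3 (ENSMUSG00000056632), the matching desmoglein, had 15.3 and 6.49 CPM in TBC libraries, against 3.53 and 1.95 CPM in BC libraries. Dsg3 levels were 51.8 and 50.3 CPM in TLC libraries, against 0.865 and 0.214 CPM in LC libraries, with both Tomato libraries above both controls in each lineage. It had a shared log2 fold change of 4.34 (SE 0.42, adjusted p = 0.0021), and the lineages differed (adjusted p = 0.0458). Slpi, a secreted protease inhibitor, had changes of opposite sign, -0.73 ± 0.25 for TBC minus BC and 4.06 ± 0.29 for TLC minus LC (adjusted p of the difference 0.00136). Pkp1, plakophilin 1, had -0.20 for TBC minus BC and 2.45 for TLC minus LC (adjusted p of the difference 0.014). Calls of the basal and desmosome genes named were lost without BC replicate 1 (Krt14, 0.0626), without TLC replicate 1 (Krt14, 0.0701) and without BC replicate 2 (Krt14, 0.0533). Calls ended too in a model with 1 ablation effect for both lineages (Trp63, Krt5, Krt14, Tpm2, Cdh3, Snai2, Dsc3, Dsg3, Pkp1 and Slpi, 0.077 to 0.461). The 4 desmosome calls became 1 in that model. The test of the difference called 4 genes without TLC replicate 1, 16 without TBC replicate 2, 58 without TLC replicate 2, 60 without BC replicate 2 and 72 without TBC replicate 1, but 301 without LC replicate 1, against 123 with all libraries.

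**Figure D4:**
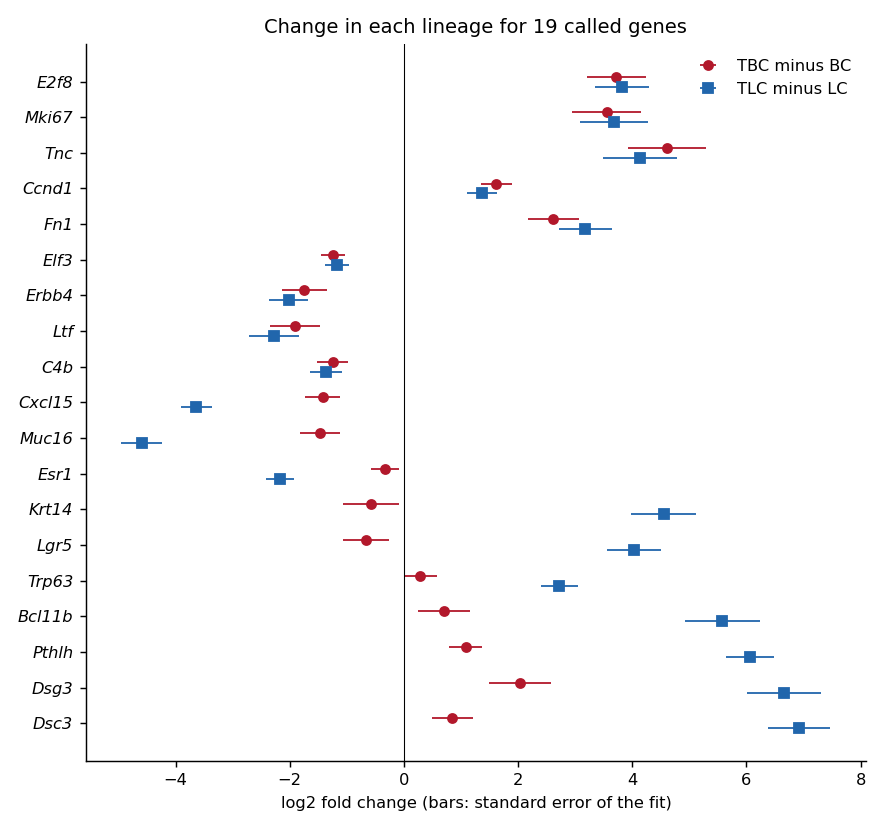
Log2 fold change and its standard error for 19 called genes, TBC minus BC as circles and TLC minus LC as squares. From E2f8 to C4b the 2 lineages lie close together, and from Cxcl15 downward TLC minus LC lies further from 0, with Krt14 and Lgr5 below 0 for TBC minus BC and above 0 for TLC minus LC.

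Luminal identity genes fell in part. Hormone-sensing genes fell in 6 of 15 members (Areg, Pgr, Wnt4, Esr1, Prlr and Cxcl15), with a median log2 fold change of -0.90 in both lineages together, 0.14 for TBC minus BC and -2.11 for TLC minus LC, and 4 of the 15 differed between the lineages. Esr1 (ENSMUSG00000019768, chr10:4611593-5005614), the oestrogen receptor, had 38.2 and 40.3 CPM in TBC libraries, against 41.6 and 56.8 CPM in BC libraries. Esr1 levels were 89.9 and 112 CPM in TLC libraries, against 399 and 509 CPM in LC libraries. The TLC libraries lay far below the LC libraries, while TBC and BC were close, with -0.33 ± 0.24 for TBC minus BC and -2.17 ± 0.25 for TLC minus LC (adjusted p of the difference 0.0464). Prlr, the prolactin receptor, had 242 and 129 CPM in TBC libraries, against 221 and 237 CPM in BC libraries. Prlr levels were 716 and 779.8 CPM in TLC libraries, against 4237 and 4663 CPM in LC libraries, and it had a log2 fold change of -1.44 (SE 0.24, adjusted p = 0.00853). Cxcl15 (ENSMUSG00000029375, chr5:90794534-90803067), a mucosal chemokine, had 1.89 and 2.41 CPM in TBC libraries, against 6.86 and 5.16 CPM in BC libraries. Cxcl15 levels were 9.62 and 11.3 CPM in TLC libraries, against 146 and 116 CPM in LC libraries. Its groups were apart in each lineage, with -1.42 ± 0.30 for TBC minus BC and -3.64 ± 0.27 for TLC minus LC, and the shared adjusted p of 0.000944 was the smallest of all genes tested, level with Dsc3, Muc16, Osr1, Pamr1 and Pthlh.

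Pan-luminal genes fell in 2 of 22 members, Elf3 and Krt7, with a median log2 fold change of -0.44 in both lineages together, -0.22 for TBC minus BC and -0.50 for TLC minus LC. Elf3 (ENSMUSG00000003051, chr1:135253575-135258568), an ETS factor of simple epithelia, had 31.7 and 28.1 CPM in TBC libraries, against 64.5 and 76.6 CPM in BC libraries. Elf3 levels were 63.5 and 70.3 CPM in TLC libraries, against 161 and 142 CPM in LC libraries. The changes were close to each other, at -1.24 ± 0.21 for TBC minus BC and -1.18 ± 0.21 for TLC minus LC (shared adjusted p = 0.00301). The classical luminal markers did not pass, with Krt8 at -0.47 ± 0.22, Krt18 at -0.83 ± 0.27, Krt19 at -0.50 ± 0.19 and Epcam at -0.52 ± 0.20. Luminal progenitor and alveolar genes fell in 4 of 19 members (Kit, Cd14, Rspo1 and Ltf), around a median of -0.31, and Elf5, the alveolar master regulator, did not pass at -0.27 ± 0.23. The median of the progenitor list was -0.81 within library numbers 44 to 48 and 0.11 within 80 to 84. Calls were lost in a model with 1 ablation effect for both lineages (Esr1 and Prlr, 0.105 to 0.139). The 6 hormone-sensing calls became 3 without TBC replicate 2 or TLC replicate 1, and 1 with 1 ablation effect for both lineages. The 4 progenitor calls became 1 without TLC replicate 1 and 2 without TBC replicate 1 or 2, BC replicate 1 or LC replicate 1 and the 2 pan-luminal calls 1 without TBC replicate 2, BC replicate 2 or TLC replicate 1. The additive model gave 2 progenitor calls and 1 pan-luminal call, limma-voom 2 progenitor calls and DESeq2 6 pan-luminal calls.

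Secreted defence genes fell in part. Of 17 acute phase and innate defence genes, 5 fell (Ltf, Hp, C4b, Cd14 and Wfdc2) and 1, Slpi, rose, with a median log2 fold change of -1.07 in both lineages together, -0.42 for TBC minus BC and -1.61 for TLC minus LC. Ltf (ENSMUSG00000032496, chr9:111019271-111042767), the iron-binding milk protein lactoferrin, had 65.7 and 72.5 CPM in TBC libraries, against 367 and 153 CPM in BC libraries. Ltf levels were 247 and 466 CPM in TLC libraries, against 1919 and 1531 CPM in LC libraries. Both Tomato libraries lay below both controls in each lineage, with a log2 fold change of -2.09 (SE 0.31, adjusted p = 0.00596). C4b, complement component 4, had 292 and 246 CPM in TBC libraries, against 704 and 577 CPM in BC libraries. C4b levels were 63.8 and 104 CPM in TLC libraries, against 219 and 215 CPM in LC libraries, again with no overlap and with a log2 fold change of -1.31 (SE 0.19, adjusted p = 0.0057). The membrane mucin Muc16 (ENSMUSG00000109564, chr9:18495455-18674530) had 6.31 and 5.32 CPM in TBC libraries, against 18.2 and 13.9 CPM in BC libraries. Muc16 levels were 8.4 and 17.7 CPM in TLC libraries, against 365 and 279 CPM in LC libraries. No groups overlapped, and the log2 fold change was -1.46 ± 0.35 for TBC minus BC and -4.59 ± 0.36 for TLC minus LC (adjusted p of the difference 0.0216). Ctse, the protease cathepsin E, had -0.79 ± 0.41 for TBC minus BC and -3.86 ± 0.38 for TLC minus LC (shared adjusted p = 0.00278). Rasef, a Rab-family GTPase, had 7.09 and 6.34 CPM in TBC libraries, against 19.4 and 13.4 CPM in BC libraries. Rasef levels were 36 and 49.8 CPM in TLC libraries, against 232 and 199 CPM in LC libraries, and Nupr1, a stress-induced chromatin protein, had 15.3 and 9.55 CPM in TBC libraries, against 34.3 and 23.9 CPM in BC libraries. Nupr1 levels were 70.0 and 82.6 CPM in TLC libraries, against 486 and 382 CPM in LC libraries. Both were chosen after their values were seen, and changed by -1.8 ± 0.19 (adjusted p = 0.0021) and -1.87 ± 0.21 (adjusted p = 0.00223). Calls were lost in a model with 1 ablation effect for both lineages (Muc16 and Ctse, 0.0623 to 0.0927). The 5 lower calls became 2 without TBC replicate 2 or TLC replicate 1 and 3 without TBC replicate 1 or TLC replicate 2, 2 with 1 ablation effect for both lineages and 10 by DESeq2.

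Antigen presentation genes fell in 7 of 20 members, with a median log2 fold change of -0.50 in both lineages together, -0.048 for TBC minus BC and -1.09 for TLC minus LC. H2-Q6, a nonclassical class I molecule, had 29 and 34.9 CPM in TBC libraries, against 40.2 and 45.9 CPM in BC libraries. H2-Q6 levels were 28 and 32.4 CPM in TLC libraries, against 102 and 157 CPM in LC libraries. Its groups were apart in each lineage, and it had -0.43 ± 0.25 for TBC minus BC and -2.1 ± 0.26 for TLC minus LC (shared adjusted p = 0.00484). The class I genes H2-Q4 and H2-D1 changed by -1.01 ± 0.17 (adjusted p = 0.0102) and -0.98 ± 0.18 (adjusted p = 0.0118), and class I genes resemble each other enough that counting may have split their reads. Immediate-early genes, which respond to growth signals and to tissue dissociation, fell in 5 of 21 members (Fosb, Btg2, Jun, Junb and Jund), with a median log2 fold change of -0.64 in both lineages together, -0.56 for TBC minus BC and -0.60 for TLC minus LC. Fosb, an AP-1 subunit, had 2078 and 1439 CPM in TBC libraries, against 3316 and 3750.3 CPM in BC libraries. Fosb levels were 1273 and 1802 CPM in TLC libraries, against 3211 and 2876 CPM in LC libraries, with no overlap and a log2 fold change of -1.0 (SE 0.23, adjusted p = 0.035). Junb, its partner, changed by -0.76 ± 0.18 (adjusted p = 0.0345), while Egr1 at -0.65 ± 0.23 and Fos at -0.66 ± 0.23 did not pass. Herpud1, which acts in the disposal of misfolded proteins, was the 1 of 20 unfolded-protein response genes that passed, at -1.36 ± 0.20 (adjusted p = 0.00484). Calls were lost without BC replicate 1 (Junb and Fosb, 0.0767 to 0.0848), without LC replicate 1 (Junb and Fosb, 0.0658 to 0.0781) and without TLC replicate 1 (H2-Q4, Junb and Fosb, 0.0518 to 0.115). Losses came too without BC replicate 2 (Junb and Fosb, 0.0814 to 0.0847), without LC replicate 2 (Junb and Fosb, 0.0632 to 0.0826) and without TBC replicate 1 (Junb, 0.0885). Calls were also lost without TBC replicate 2 (H2-D1, Junb and Fosb, 0.0696 to 0.168) and in a model with 1 ablation effect for both lineages (H2-Q6, H2-Q4, H2-D1, Junb, Fosb and Herpud1, 0.0517 to 0.088). The 7 antigen presentation calls became 2 without TBC replicate 2 or TLC replicate 1 and 3 without TBC replicate 1, BC replicate 1 or 2 or LC replicate 2, and the 5 immediate-early calls became 0 without TBC replicate 2, BC replicate 2, TLC replicate 1 or LC replicate 2, 1 without LC replicate 1 and 2 without TBC replicate 1, BC replicate 1 or TLC replicate 2. With 1 ablation effect for both lineages neither list had a call, and DESeq2 gave 10 immediate-early calls.

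**Figure D5:**
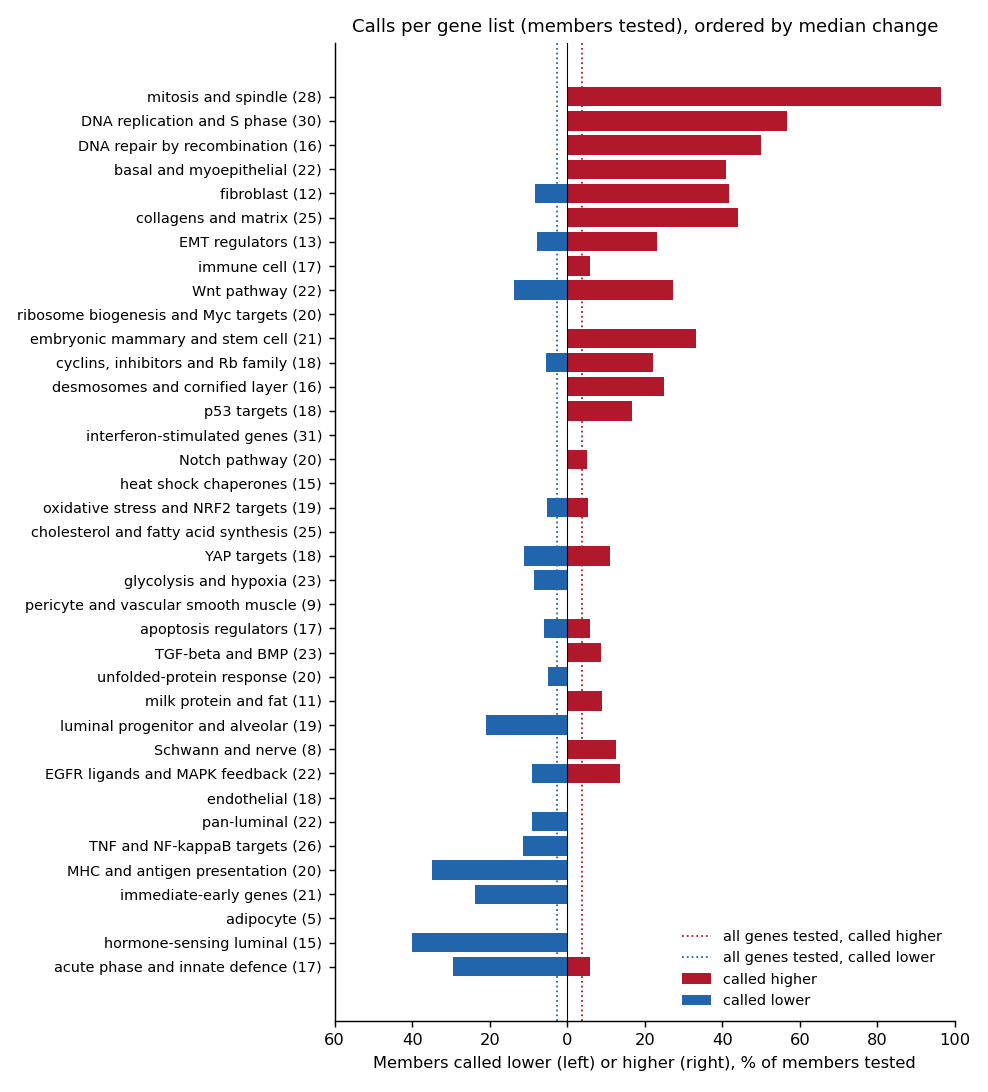
Share of each list's tested members called higher (bars to the right) or lower (bars to the left) in the shared response, ordered by the list's median change, with the number tested in brackets. The dotted lines mark the 3.93% and 2.52% of all genes tested, which the mitosis list passes upward with 27 of 28 members and the hormone-sensing list downward with 6 of 15.

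Several stress, immune and other programmes had few or no calls, against 3.93% higher and 2.52% lower over all genes tested. In lists this short, even 2 or 3 calls can lie above those shares. Interferon-stimulated genes had 0 of 31 calls by edgeR, with 6 higher and 2 lower at an unadjusted p under 0.05 and 1 higher by DESeq2, and a median log2 fold change of 0.19 in both lineages together, 0.45 for TBC minus BC and -0.12 for TLC minus LC. Isg15, a ubiquitin-like interferon product, had 9.14 and 1.82 CPM in TBC libraries, against 2.55 and 1.95 CPM in BC libraries. Isg15 levels were 4.37 and 2.82 CPM in TLC libraries, against 2.81 and 2.0 CPM in LC libraries, so TBC replicate 1 was the highest, and it did not pass (adjusted p = 0.309). The interferon count became 2 without TBC replicate 2. Heat shock chaperones had 0 of 15 calls, with 3 higher and 4 lower at an unadjusted p under 0.05 and 1 higher and 2 lower by DESeq2. The higher heat shock count became 1 without TLC replicate 2, and the lower 1 without LC replicate 1 and 2 without TBC replicate 1. TNF and NF-kappaB targets fell in 3 of 26, which became 0 without TBC replicate 2, BC replicate 1, TLC replicate 1 or LC replicate 1 and 1 without BC replicate 2, TLC replicate 2 or LC replicate 2, and Tnf itself did not pass at -0.97 ± 0.31 (adjusted p = 0.0984). The NF-kappaB targets leaned lower, with 22 of 26 members below 0, and 12 lower and 1 higher at an unadjusted p under 0.05. Their median log2 fold change was -0.48 in both lineages together, -0.30 for TBC minus BC and -0.66 for TLC minus LC. Cholesterol and fatty acid synthesis had 0 of 25 calls, with 2 higher and 3 lower at an unadjusted p under 0.05 and 1 higher by DESeq2. Ribosome biogenesis had 0 of 20, with 8 higher at an unadjusted p under 0.05, 0 by DESeq2 and a median of 0.44. Apoptosis regulators and genes of the NRF2 response had 1 higher and 1 lower call each, of 17 and 19 members, and the Notch pathway had 1 higher call of 20. TGF-beta and BMP genes rose in 2 of 23, YAP targets rose in 2 and fell in 2 of 18, and glycolysis and hypoxia genes fell in 2 of 23. Regulators of the epithelial to mesenchymal transition rose in 3 and fell in 1 of 13. Their median log2 fold change was 0.92 in both lineages together, 0.15 for TBC minus BC and 1.96 for TLC minus LC. The TGF-beta count became 1 without BC replicate 1 or 2 or TLC replicate 1 and 4 without LC replicate 1, and the Notch count 0 without TLC replicate 1. Higher YAP calls became 1 without TBC replicate 1 or 2, BC replicate 1 or 2, TLC replicate 1 or LC replicate 1, and lower ones 1 without TBC replicate 2 or TLC replicate 1. The transition regulators had 6 higher calls without LC replicate 1, and their lower call was lost without any 1 of the 8 libraries. Glycolysis calls became 0 without TBC replicate 2, 1 without BC replicate 1 or TLC replicate 1 or 2 and 4 without BC replicate 2. The higher apoptosis call was lost without TBC replicate 2, BC replicate 1, TLC replicate 1 or 2 or LC replicate 1 or 2, and the lower without TBC replicate 2, BC replicate 1 or 2, TLC replicate 1 or 2 or LC replicate 2. The higher NRF2 call was lost without TBC replicate 2, BC replicate 1 or 2, TLC replicate 1 or LC replicate 1 or 2, and the lower without TLC replicate 1. In the additive model the NF-kappaB, apoptosis, NRF2, Notch and TGF-beta lists had 0 calls, the YAP targets 0 higher and 1 lower, and the transition regulators 1 higher and 0 lower. DESeq2 gave 7 lower NF-kappaB calls, 4 higher and 2 lower TGF-beta calls, 4 lower YAP calls, 4 lower glycolysis calls, 3 lower NRF2 calls and 2 lower apoptosis calls.

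Markers of other cells gave few calls outside the fibroblast list. Endothelial genes had 0 of 18 calls by edgeR, with 1 lower at an unadjusted p under 0.05 and 1 lower by DESeq2, and their summed level was 396 and 408 CPM in TBC, against 804 and 245 CPM in BC, and 204 and 244 CPM in TLC, against 534 and 216 CPM in LC. Their median change was -1.11 within library numbers 44 to 48 and 0.90 within 80 to 84. Immune cell genes summed to 83.6 and 44.1 CPM in TBC, against 70.2 and 31.3 CPM in BC, and 47.4 and 51.2 CPM in TLC, against 44.7 and 35.6 CPM in LC, with 1 to 3 of 20 genes at 0 counts in a library. They leaned higher, with 13 members above 0 and 4 below, and 6 higher and 2 lower at an unadjusted p under 0.05 by edgeR. Their median log2 fold change was 0.88 in both lineages together, 0.58 for TBC minus BC and 0.84 for TLC minus LC. It was 0.74 within library numbers 44 to 48 and 0.55 within 80 to 84. The complement gene C1qa of macrophages was their 1 call of 17 tested, at 24 counts in TLC against 3 in LC, a ratio of 11.1 (95% counting interval 3.38 to 57.7), and 24 in TBC against 7 in BC (shared adjusted p = 0.0464). Its call was lost without any 1 of the 8 libraries, at an adjusted p of 0.059 to 0.186, by limma-voom (0.0645), with upper-quartile factors (0.0551) and in the additive model (0.0891). Pericyte and adipocyte markers had 0 calls of 9 and 5 by edgeR, 0 at an unadjusted p under 0.05 and 0 by DESeq2, the 1 erythrocyte gene tested was not called by either tool, and Schwann cell markers had 1 higher call of 8, lost without TBC replicate 2, BC replicate 2, TLC replicate 1 or 2 or LC replicate 2. The part of these cells in the shared response was not tested.

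The most extreme genes with at least 10 CPM included several far from the lists. Ppp1r14c (ENSMUSG00000040653, chr10:3366057-3464975), an inhibitor of protein phosphatase 1, had 1.73 and 4.3 CPM in TBC libraries, against 0.196 and 0.254 CPM in BC libraries. Ppp1r14c levels were 27.5 and 10.8 CPM in TLC libraries, against 0.649 and 0.357 CPM in LC libraries, with no overlap and a log2 fold change of 4.46 (SE 0.52, adjusted p = 0.00278). The gene Gm26752 overlaps Ppp1r14c on the opposite strand and was called at 6.10. With the strand setting not given, reads of Ppp1r14c and Gm26752 cannot be told apart. Megf10, a receptor for engulfment of dying cells, changed by 4.75 ± 0.73 (adjusted p = 0.00853) and Pou2af1, a lymphoid transcription coactivator, by 4.82 ± 0.93 (adjusted p = 0.0254). Csn1s2a, a casein of milk, had 15.4 and 25.5 CPM in TBC libraries, against 0.784 and 0.0846 CPM in BC libraries. Csn1s2a levels were 2.27 and 19.4 CPM in TLC libraries, against 0.865 and 0.214 CPM in LC libraries, with a log2 fold change of 5.2 (SE 0.84, adjusted p = 0.0128). Csn1s2a was the 1 of 11 milk genes tested that passed, in a list whose median was -0.31. That median was -0.77 within library numbers 44 to 48 and 0.64 within 80 to 84. Aurkb, the kinase of the chromosomal passenger complex, at 4.12 ± 0.81, Pclaf, a partner of the replication clamp that overlaps the gene Trip4, at 4.11 ± 0.61, and 8030451A03Rik at 4.38 ± 0.65, with Tnc, Dsg3 and Ccnb1, completed the 10 highest.

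At the lower end, Ccn5 (ENSMUSG00000027656, chr2:163820861-163833146), a matricellular growth inhibitor, had 2.05 and 0.802 CPM in TBC libraries, against 7.45 and 4.65 CPM in BC libraries. Ccn5 levels were 0.70 and 2.0 CPM in TLC libraries, against 41.1 and 16.9 CPM in LC libraries. Both Tomato libraries lay below both controls in each lineage, with a log2 fold change of -3.23 (SE 0.46, adjusted p = 0.00531). Bglap3, an osteocalcin-related gene with near-identical neighbours between which reads may be split, had 1.26 and 1.39 CPM in TBC libraries, against 5.68 and 4.32 CPM in BC libraries. Bglap3 levels were 1.57 and 3.64 CPM in TLC libraries, against 32.7 and 28.6 CPM in LC libraries, with a log2 fold change of -2.68 (SE 0.30, adjusted p = 0.00245). Nrxn3, a neurexin, changed by -2.71 ± 0.55, Dscam, a cell adhesion molecule, by -2.64 ± 0.52, Kcnd2, a potassium channel, by -2.63 ± 0.47, Hp, haptoglobin, by -2.51 ± 0.46 and the unnamed transcript Gm43085 by -2.73 ± 0.49. With Muc16, Cxcl15 and Ctse these made the 10 lowest. Calls in both groups of extreme genes were lost without BC replicate 1 (Csn1s2a, Pou2af1, Aurkb, Pclaf, Nrxn3 and Dscam, 0.0555 to 0.117), with no filter on low counts (Pou2af1, 0.056) and without LC replicate 1 (Csn1s2a, Pou2af1, Aurkb and Nrxn3, 0.0505 to 0.0989). Losses also came without TLC replicate 1 (Pou2af1, Aurkb, Kcnd2 and Hp, 0.0635 to 0.126), without BC replicate 2 (Csn1s2a, Pou2af1, Megf10, 8030451A03Rik, Aurkb, Pclaf, Gm43085, Nrxn3 and Dscam, 0.0509 to 0.0879) and without LC replicate 2 (Csn1s2a, Pou2af1, Aurkb, Nrxn3 and Dscam, 0.054 to 0.101). Further losses came without TBC replicate 1 (Pou2af1, Nrxn3, Dscam and Hp, 0.0923 to 0.137), without TBC replicate 2 (Csn1s2a, Pou2af1, Gm43085, Nrxn3, Dscam, Kcnd2 and Hp, 0.0523 to 0.155) and in a model with 1 ablation effect for both lineages (Pou2af1, Aurkb, Nrxn3 and Hp, 0.0512 to 0.0952). Calls ended too without TLC replicate 2 (Aurkb, Kcnd2 and Hp, 0.0538 to 0.06), by limma-voom (Pou2af1, Megf10, Aurkb and Kcnd2, 0.0545 to 0.0999) and with all 10 libraries in the fit (Nrxn3 and Dscam, 0.0688 to 0.0823).

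Of the 1244 shared calls, 268 held without each of the 8 libraries in turn, 181 higher and 87 lower, and no called gene changed sign in any of these fits. Of these 268, 70 differed between the lineages in the test of the difference with all libraries, as 104 of all 1244 calls did. A call that held is thus not always a change of like size in both lineages. Under all 18 alternative settings together, 102 calls held, 64 higher and 38 lower. The additive model, with 1 ablation effect for both lineages, is among the 18 settings. Near-equal changes in the lineages were therefore favoured among the 102 by construction. Besides genes already described (Tnc, Fn1, Ccnd1, E2f8, Mki67, Ube2c, Cenpe, Brca1, Bard1, Sostdc1, Etv5, Ltf, C4b, Elf3, Erbb4, Cxcl15, Rasef and Nupr1), the 102 held others named here after their values were seen. Pamr1 (ENSMUSG00000027188, chr2:102550012-102643041), a secreted peptidase-domain protein of muscle repair, had 14.7 and 9.48 CPM in TBC libraries, against 1.57 and 2.2 CPM in BC libraries. Pamr1 levels were 15.9 and 17.9 CPM in TLC libraries, against 0.541 and 0.858 CPM in LC libraries, with a log2 fold change of 3.58 (SE 0.30, adjusted p = 0.000944). Gpnmb, a transmembrane glycoprotein, had 13.6 and 3.06 CPM in TBC libraries, against 0.784 and 0.254 CPM in BC libraries. Gpnmb levels were 8.05 and 9.09 CPM in TLC libraries, against 0.216 and 0.143 CPM in LC libraries, with no overlap and a log2 fold change of 4.84 (SE 0.61, adjusted p = 0.0037). Sdc3, the proteoglycan syndecan 3, had 119 and 116 CPM in TBC libraries, against 44.9 and 58.4 CPM in BC libraries. Sdc3 levels were 36.4 and 30.4 CPM in TLC libraries, against 12.1 and 14 CPM in LC libraries, a log2 fold change of 1.18 ± 0.22 for TBC minus BC and 1.35 ± 0.23 for TLC minus LC. Vldlr, a lipoprotein receptor that also binds reelin, had 1.45 ± 0.30 for TBC minus BC and 1.48 ± 0.30 for TLC minus LC. Nrg2, a second neuregulin, had 18 and 32.1 CPM in TBC libraries, against 5.1 and 5.16 CPM in BC libraries. Nrg2 levels were 10.7 and 7.27 CPM in TLC libraries, against 0.973 and 2.5 CPM in LC libraries, and a log2 fold change of 2.3 (SE 0.33, adjusted p = 0.00484). St8sia6, a sialyltransferase, changed by 2.81 ± 0.28 (adjusted p = 0.0021) and Enox1, a cell surface oxidase, by 3.48 ± 0.41 (adjusted p = 0.00278). Bmpr1b, a receptor for BMP ligands, had 0.946 and 1.02 CPM in TBC libraries, against 1.96 and 1.95 CPM in BC libraries. Bmpr1b levels were 3.85 and 5.0 CPM in TLC libraries, against 51.4 and 35.9 CPM in LC libraries, with no overlap in either lineage and a log2 fold change of -2.12 (SE 0.26, adjusted p = 0.00301).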

How the data were processed

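RNA of cells sorted from mouse mammary glands by flow cytometry after antibody staining was extracted with the Qiagen RNeasy Micro kit, made into libraries with the NuGen Ovation Solo system and sequenced on an Illumina NovaSeq, per the labels' protocols. STAR, HTSeq and GRCm38 (mm10) appear in the submitters' processing notes, and neither versions nor the strand option of counting is stated there or in the labels. The authors deposited raw counts per gene and library. Per library, 17.4% to 30.8% of the deposited counts were in no feature, 2.71% to 3.48% were ambiguous and 14.6% to 22.4% were not unique, and these summary lines were left out of library sizes and tests.

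Counts of 8 libraries were scaled by TMM, filtered with filterByExpr, which left 19269 genes, and tested by edgeR 4.0.16 (R 4.3.3) with the robust quasi-likelihood F-test. The model had 1 coefficient per population and 4 residual degrees of freedom. The shared response is the average of both ablation contrasts, and TBC minus BC, TLC minus LC and their difference came from the same fit. P-values were adjusted by Benjamini-Hochberg over all genes tested, and called means an adjusted p under 0.05. Standard errors are the fold change divided by the square root of F, and CPM values are counts per 1000000 gene counts after TMM scaling. DESeq2 1.42.0, limma-voom 3.58.1, an additive model, other scalings, filters and fold thresholds, and fits without each library were the alternatives. Counts were also simulated on the mean of each lineage, with the same fold in both lineages, unlike the mostly wider luminal changes of the called genes. There the shared test called 31 of 100 genes changed 2-fold, 92 of 100 changed 4-fold and 15 unchanged genes. Those 15 are a larger share of the simulated calls than an adjusted p under 0.05 aims at. Replicates differed by more than counting noise, with a chi-square of 19.5 to 34.4 per degree of freedom, so none was counted as a copy of another.

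Members and the 38 gene lists were chosen with earlier results of these data known. Genes were named by a rule: the 10 highest and 10 lowest called changes with at least 10 CPM in the higher condition and no overlap in either lineage, up to 4 called members per list by adjusted p, the extreme members of each list, and 16 anchor genes. Not every gene so named is printed, and others are marked where they appear. Coordinates are 1-based GENCODE gene bounds on GRCm38, matched to 49326 of 49671 identifiers.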

Additional observations from a re-analysis of the deposited data

Results flagged for a closer look

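The ablation effect differed between the lineages for 123 genes, by the test of TLC minus LC against TBC minus BC in the same edgeR fit. Each value here is the luminal minus the basal log2 fold change, with the adjusted p of that difference. Embryonic and signalling genes differed by 4.98 for Pthlh (adjusted p = 0.00667), 4.88 for Bcl11b (adjusted p = 0.0422), 2.26 for Bmp7 (adjusted p = 0.0387) and -2.4 for Wnt4 (adjusted p = 0.0416). Basal identity genes differed by 5.13 for Krt14 (adjusted p = 0.0198), 4.56 for Cdh3 (adjusted p = 0.0165), 3.93 for Krt5 (adjusted p = 0.0402), 2.43 for Trp63 (adjusted p = 0.0416) and 2.43 for Tpm2 (adjusted p = 0.0286). Desmosome genes and the protease inhibitor Slpi differed by 6.08 for Dsc3 (adjusted p = 0.00722), 4.63 for Dsg3 (adjusted p = 0.0458), 2.64 for Pkp1 (adjusted p = 0.014) and 4.78 for Slpi (adjusted p = 0.00136). Genes lower in TLC than in LC differed by -1.84 for Esr1 (adjusted p = 0.0464), -2.22 for Cxcl15 (adjusted p = 0.0424), -3.13 for Muc16 (adjusted p = 0.0216) and -3.07 for Ctse (adjusted p = 0.0422). In these genes the average of the lineages stands for neither lineage alone.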

How the results depend on the processing

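No called gene named here changed direction in any alternative. Of those genes, 37 lost their call in the additive model and 18 at a 1.5-fold threshold. Of genes given as not called, Acta2, Krt18, Egr1, Fos and Tnf were called by DESeq2 and with no filter on low counts, and 6 were called with the set of library numbers as a replicate block. The 1244 shared calls became 2429 with no filter on low counts, 355 at a 1.5-fold threshold and 348 in the additive model, and 345 to 1110 without 1 library. The TBC minus BC count of 0 became 420 with no filter, 198 by DESeq2 and 0 to 136 without 1 library, and it was 136 without TBC replicate 1. The TLC minus LC count of 1512 became 2644 with no filter, 750 at 1.5-fold and 320 to 1513 without 1 library. The 123 differences between lineages became 756 with no filter, 480 by DESeq2, 69 by limma-voom, 57 at 1.5-fold and 4 to 301 without 1 library. The cause of these moves was not tested. With the set of library numbers as a replicate block, the shared count was 1963 and the count of differences 292. Replicate deviations of the 4 populations correlated across genes at -0.0048 for BC with TLC and 0.082 for TBC with TLC. The other pairs of populations correlated at 0.22 to 0.424, and the third principal component split the 2 sets of numbers. The main test had no term beside the population coefficients and did not pair the libraries. Whether the numbers mark batches was not tested. Other shared counts lay between 953 by limma-voom and 1863 by DESeq2. A fit without 1 library leaves 1 population with a single sample, which is assumed to vary like the others. With 2 libraries per population, 31 of 100 simulated 2-fold changes were recovered.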
